A study of Mus musculus with 4 samples.

Results

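The *Zfp804b*/*Etl4* cluster is a small group of hindbrain neurons that the authors named for these 2 genes. Its members are the nuclei that passed the authors' quality filter and carry that cluster name in their table of nuclei, 62 of 12539 neurons and of 39461 nuclei kept in all. They were compared with the other 12477 neurons, which fall into 133 other clusters. The nuclei come from the posterior hindbrain, a dissection that contained the area postrema and the nucleus of the solitary tract. The study asked which cells there respond when AgRP neurons of the hypothalamus are activated and POMC neurons are inhibited at the same time.

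AgRP neurons promote feeding and POMC neurons restrain it, and both act in part through brainstem circuits that receive signals from the gut. A neuronal type is usually recognised by a transmitter, by transcription factors kept from its lineage and by a set of receptors and channels, and these features are shared by most nuclei of one cluster. In droplet sequencing of nuclei most reads come from unspliced RNA inside the nucleus, while spliced messenger RNA from the cytoplasm and mitochondrial RNA are carried along in small amounts. All chromosomes of a nucleus are sampled together, so the share of reads from each chromosome is much alike in most neurons.

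AgRP-Gq;POMC-Gi mice carried AgRP-IRES-Cre+/-, hM3DGqfl/-, POMC-Dre+/- and hM4DGifl/-, which place the activating receptor hM3DGq in AgRP neurons and the inhibitory receptor hM4DGi in POMC neurons. The labels give the control mice as WT, while the methods describe controls that carried the receptor alleles without the recombinases. Both groups were on the C57BL/6 background, were 12 to 20 weeks old, included both sexes and received clozapine-N-oxide (CNO), 3 mg per kg, with 1 h between injection and dissection and no food. The receptors are limited to cells in which the *Agrp* or *Pomc* gene is or was active, and *Pomc* had a UMI in 2 of the 62 nuclei. UMIs assigned to *Agrp* were found in 46.8% of them and in 50.8% of other neurons. The annotated *Agrp* gene overlaps other genes whose reads may be assigned to it, so these UMIs do not show that the receptor was present. Each group had 2 libraries, and mice of one condition were pooled, without a statement of which mice went into which library. The p-values below therefore measure the spread between libraries, part of which may be technical. The methods give 2 mice per group. *Xist*, an RNA of female cells, was found in 64.7% and 2.18% of other neurons of AgRP-Gq;POMC-Gi replicates 1 and 2. These 2 libraries therefore did not hold the same mix of mice.

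Control replicates 1 and 2 held 26 and 21 nuclei of the *Zfp804b*/*Etl4* cluster, and AgRP-Gq;POMC-Gi replicates 1 and 2 held 5 and 10. These nuclei carried 311306, 181491, 47054 and 83512 unique molecular identifiers (UMIs, each standing for 1 captured RNA molecule) in the same order, which is also the order of every set of 4 values below. The median nucleus of the cluster had 8311.5 UMIs and 3481.5 genes, against 8704 and 3564 in other neurons, so the cluster was not set apart by depth. No barcode sequence of its nuclei occurred in another library. All intervals here cover counting error only, and a range in parentheses after a share is the exact 95% interval of Clopper and Pearson.

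The nuclei were neuronal by the markers fixed for that class. *Snap25*, which encodes a protein of synaptic vesicle fusion, was detected in 100% of them at 1067 ± 178 CPM (UMIs scaled to a total of 1000000; mean ± SD, n = 4 libraries), and *Rbfox3*, the gene of the neuronal nuclear protein NeuN, in 79.0% at 334 ± 84.8 CPM. *Nefl*, a neurofilament gene, and *Stmn2*, a regulator of microtubules in axons, were also detected in most nuclei.

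The 2 label genes were present but their levels did not set the cluster apart. *Zfp804b*, a zinc finger gene on chromosome 5, stood at 1706, 612, 659 and 419 CPM, a mean of 849 ± 581 against 637 ± 45.8 CPM in other neurons. Its level was the 39th highest of the 134 neuronal clusters. Control replicate 1 decides that difference in level. There 1 nucleus held 175 of the 531 *Zfp804b* UMIs, and without that library the ratio to other neurons was 0.869 in place of 1.33. A UMI of *Zfp804b* was found in 72.6% of the cluster's nuclei and 47.6% of other neurons. By library it was found in 20 of 26, 17 of 21, 2 of 5 and 6 of 10 nuclei of the cluster. The 7 other clusters that the authors named in part for *Zfp804b* had between 1054 and 3524 CPM. *Etl4*, a large gene on chromosome 2, stood at 1028, 1504, 2040 and 730 CPM, 1326 ± 573 against 740 ± 38.3 CPM, the 12th highest level of the clusters. At least 1 UMI of both genes was found in 41 of the 62 nuclei (66.1%) and in 36.5% of other neurons, with similar depth in both sets. The pair of genes therefore serves here only as the cluster's name.

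The leading genes of the *Zfp804b*/*Etl4* cluster were chosen as the 25 genes with the highest ratio of its mean CPM to that of other neurons, each with 1 CPM added, among genes detected in no less than 25% of its nuclei. The nuclei were clustered on gene expression, so these values are a description without a test. The ratios ran from 2.63 to 3.85. The highest, that of *Mrpl30*, was 1.88 without AgRP-Gq;POMC-Gi replicate 1, and the lowest, that of *Col16a1*, was between 1.82 and 3.65 with a library left out. Under the same rule the top gene of each of the other 133 neuronal clusters had a ratio between 4.25 and 859, with a median of 25.0, so that the cluster had the weakest top gene of all. Its 25th gene, with 2.63, was less unusual and ranked 26th from the lowest. Even so, 86 such genes had their highest level of all clusters here, against a median of 24 genes in the other clusters.

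**Figure D1:**
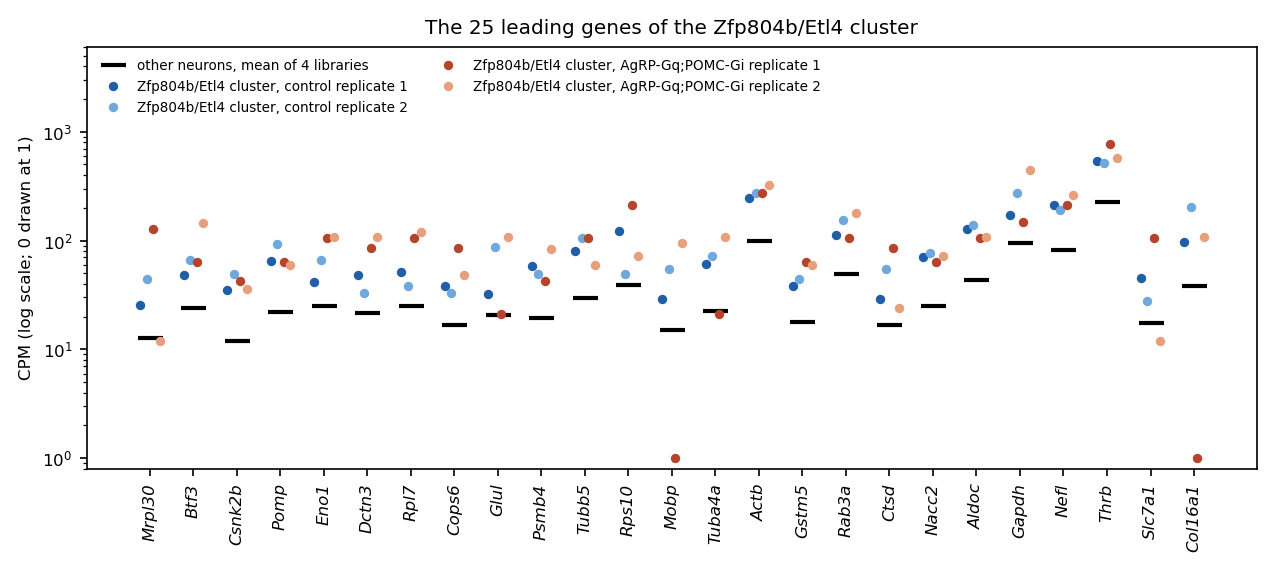
Level of the 25 leading genes in the *Zfp804b*/*Etl4* cluster by library (points, CPM on a log scale, a value of 0 drawn at 1) and the mean of other neurons over the 4 libraries (black bars). Most points lie above the black bar of their gene, and libraries differ widely for low genes such as *Mrpl30*, at 25.7, 44.1, 128 and 12.0 CPM against 12.9.

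The 25 leading genes included *Rpl7* and *Rps10*, which encode ribosomal proteins, *Mrpl30*, a protein of the mitochondrial ribosome, *Psmb4* and *Pomp*, a proteasome subunit and a factor for its assembly, *Eno1*, *Aldoc* and *Gapdh*, enzymes of glycolysis, and *Actb*, *Tubb5* and *Tuba4a*, which encode actin and tubulins. *Actb* stood at 247, 275, 276 and 323 CPM against a mean of 99.5 in other neurons. *Gapdh* stood at 170, 275, 149 and 443 CPM against 95.1, and *Nefl* at 212, 193, 213 and 263 CPM against 81.9. All 4 libraries lay above the mean of other neurons for each of these genes, and the control and AgRP-Gq;POMC-Gi values overlapped for *Gapdh*. For *Actb* and *Nefl* they lay next to each other without overlap, as in 35.8% of the genes later tested between the groups.

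Members of several gene families lay higher too. The families were chosen after the leading genes had been seen, and the genes counted were those detected in 5% or more of its nuclei or of other neurons. Over all 12634 such genes the median ratio to other neurons was 1.01, with 1919 genes (15.2%) above 1.5. Of 80 ribosomal protein genes 53 lay above 1.5 (median ratio 1.66) and 2 under 0.667, and 44 were higher in all 4 libraries. Of 78 nuclear genes of the respiratory chain and ATP synthase 53 lay above it (median 1.78), as did 11 of 16 genes of glycolysis (median 1.94) and 9 of 11 tubulin genes (median 1.72). Proteasome genes were closer to the rest, with 8 of 34 above 1.5 (median 1.31). *Pkm*, which encodes the pyruvate kinase that ends glycolysis, was higher than in any other neuronal cluster, at 202, 226, 128 and 216 CPM against 74.9 in other neurons. All 13 genes encoded in the mitochondrial genome lay above 1.5 (median 2.18). The median share of mitochondrial UMIs per nucleus was 0.158%, 0.279%, 0.162% and 0.333% in the *Zfp804b*/*Etl4* cluster and 0.105%, 0.123%, 0.0659% and 0.0935% in other neurons, above them in each library.

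Other leading genes had other roles. *Thrb*, which encodes a thyroid hormone receptor and is a long gene with much intronic RNA, stood at 543, 518, 765 and 575 CPM against 225 in other neurons, the highest level of the 134 clusters. *Nacc2*, a transcriptional repressor, was the most even over libraries, at 70.7, 77.1, 63.8 and 71.8 CPM against 25.2. *Mobp*, a gene of myelin detected in 93.1% of oligodendrocytes, was seen in 30.6% of these nuclei and 11.1% of other neurons, and had no UMI in AgRP-Gq;POMC-Gi replicate 1. The summed level of the 5 oligodendrocyte markers was 260, 468, 191 and 467 CPM in the cluster and 274, 228, 134 and 169 CPM in other neurons, higher in 3 of 4 libraries. The 5 microglia markers summed to 145, 198, 234 and 228 CPM against 140, 138, 153 and 140, and the 5 endothelium markers to 51.4, 116, 85.0 and 35.9 CPM against 35.2, 65.5, 47.2 and 33.4, both higher in all 4 libraries. The sums of astrocyte, ependyma, fibroblast and oligodendrocyte precursor markers were at most 106 CPM in any library of the cluster, and they were not higher in all 4. Markers of choroid plexus followed the library in both sets, with sums of 19.3, 1295, 42.5 and 742 CPM in the cluster and 7.68, 1013, 12.7 and 590 in other neurons. They too were higher in the cluster in all 4 libraries. The part of RNA from other cells in the leading genes was not tested.

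The genes that were lowest in the *Zfp804b*/*Etl4* cluster lay together on a few chromosomes. Under the matching rule, for genes detected in 25% of other neurons or more, the 10 with the lowest ratios were named. They were *Mir133a-1hg*, *Gm19522*, *Lrrn1*, *Srrm4os*, *4933424G05Rik*, *C630031E19Rik*, *Hdac9*, *Dock4*, *Fam49a* and *Mipol1*. *Hdac9*, a histone deacetylase gene on chromosome 12, stood at 106, 77.1, 128 and 83.8 CPM against 588 in other neurons, and all 4 libraries of the cluster lay far below those of other neurons. *Dock4*, an activator of small GTPases on the same chromosome, stood at 54.6, 99.2, 0 and 35.9 CPM against 277. *Mir133a-1hg* on chromosome 18 had no UMI in the cluster, which allows a UMI in up to 4.84% of nuclei if 3 counts are taken as the limit of a count of 0, against 26.8% of other neurons. The other 9 genes had ratios from 0.106 to 0.179. It and 4 others of the 10 are annotated as antisense RNAs, whose reads cannot be told from those of a partner gene if strand was not used in counting.

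Of these 10 genes 7 lie on chromosomes 12, 18 and 19, where 11% of the genes that could have been listed lie. None of the 25 leading genes lies there, against 7.97% of the genes that could have led. On chromosomes 1, 12, 15, 18 and 19 together lie 4 of the 25 leading genes, close to the 17.3% of the genes that could have led. The low genes among these lie on chromosomes 12 and 18. The chromosomes were picked from the same nuclei, so these counts are a description. Positions are those of the GENCODE M21 annotation of GRCm38.

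The chromosome pattern was therefore measured in each nucleus. For each of the 19 autosomes the share of a nucleus's UMIs was divided by the median share in other neurons of the same library, which gives a share ratio of 1 for a typical neuron. The 87 genes that each took over 0.1% of neuronal UMIs were left out, so that single abundant genes could not move a chromosome. The median nucleus of the *Zfp804b*/*Etl4* cluster had a share ratio of 0.524 on chromosome 18, 0.567 on chromosome 12, 0.680 on chromosome 19, 0.733 on chromosome 15 and 0.872 on chromosome 1. Each of these was the lowest of the 134 neuronal clusters, on chromosome 1 by a small margin, with another cluster at 0.880. By library chromosome 1 stood at 0.936, 0.717, 0.845 and 0.938, and its median was 0.931 without control replicate 2. The lowest median of any other cluster was 0.892 for chromosome 18, 0.928 for chromosome 12 and 0.889 for chromosome 19. On chromosomes 2, 5, 9 and 17 the cluster had the highest median of all clusters, between 1.09 and 1.11, by a small margin. The highest median of another cluster was 1.10, 1.10, 1.09 and 1.08 on these chromosomes. By library chromosome 2 stood at 1.12, 1.20, 1.24 and 0.970, and chromosome 5 at 1.16, 1.12, 0.772 and 1.11. The shares of a nucleus add up to its whole, so low shares on some chromosomes raise the others. *Etl4* lies on chromosome 2 and *Zfp804b* on chromosome 5, and a link to these shares was not tested.

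By library the median share ratio of chromosome 12 was 0.523, 0.603, 0.541 and 0.664. For chromosome 18 it was 0.488, 0.552, 0.430 and 0.810, and for chromosome 19 it was 0.673, 0.765, 0.666 and 0.639. All 4 libraries lay below 1 on these chromosomes. On chromosome 15 it was 0.701, 0.947, 0.677 and 0.683, with control replicate 2 apart from the rest. The 2 groups overlapped on chromosomes 12 and 18. They did not on 10 of the 19 autosomes (52.6%), among them chromosomes 15 and 19, where both control values lay above the others. Chromosome 19 moved with the genes used, to 0.813 with the 87 abundant genes included.

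**Figure D2:**
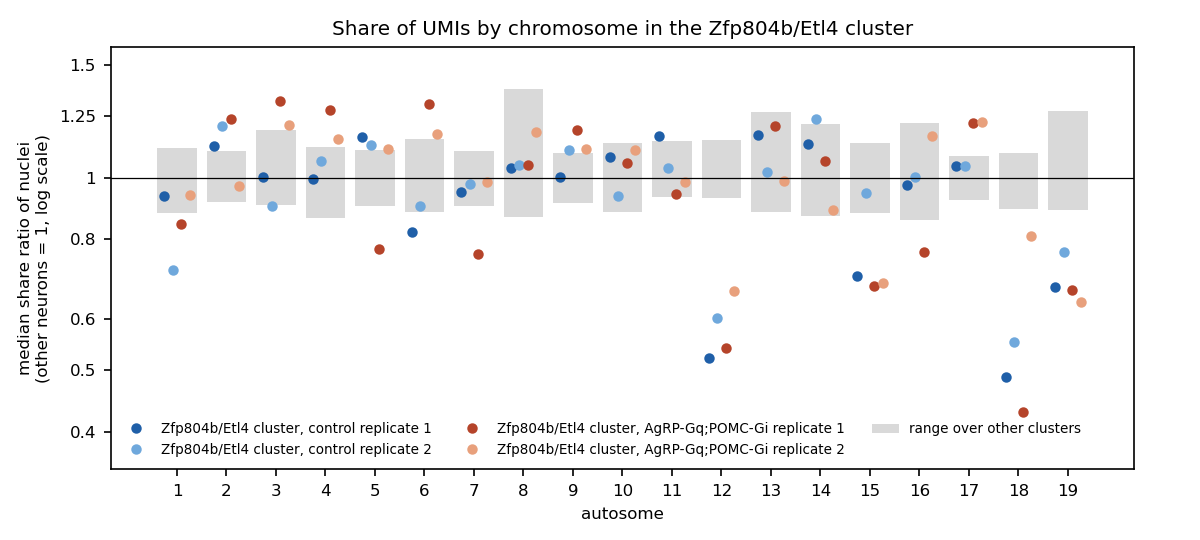
Median share ratio of the nuclei of the *Zfp804b*/*Etl4* cluster on each autosome, by library (points, log scale, 1 is the median of other neurons of the same library), with the range of the medians of the other 133 neuronal clusters in grey. All 4 points lie below the grey range on chromosomes 12, 18 and 19, and the medians over all nuclei there are 0.567, 0.524 and 0.680.

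The lower level was also counted gene by gene. Among genes with at least 10 CPM in other neurons, 85.4% of the 404 genes on chromosome 12 were lower in the *Zfp804b*/*Etl4* cluster, with a median log2 ratio of -0.78. On chromosome 18 it was 83.9% of 305 genes with a median log2 ratio of -0.80, and on chromosome 19 it was 77.2% of 325 genes with a median of -0.59. On chromosome 5, by contrast, 49.2% of 685 genes were lower, with a median of 0.01.

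Single nuclei differed in which chromosomes were low. A share ratio under 0.6 was found on chromosome 18 in 39 of the 62 nuclei (62.9%) and on chromosome 12 in 34 (54.8%). It was found on chromosome 15 in 19 nuclei (30.6%), on chromosome 1 in 18 (29.0%) and on chromosome 19 in 17 (27.4%). Chromosome 2 was low in 0 nuclei. In other neurons each of these 6 chromosomes was low in 1.16% to 1.99% of nuclei. Only 2 nuclei of the *Zfp804b*/*Etl4* cluster had no low autosome, 10 had 1 and 10 had 2, while 15 nuclei had 3, 9 had 4, 6 had 5, 8 had 6 and 2 had 7.

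The range is shown by 3 nuclei. The least uneven, from control replicate 2, had 7168 UMIs and share ratios between 0.763 on chromosome 18 and 1.32 on chromosome 14. The middle one, from control replicate 1, had 12163 UMIs, with 0.348 on chromosome 6, 0.414 on chromosome 1 and 1.56 on chromosome 13. The most uneven, also from control replicate 1, had 12137 UMIs, with 0.278 on chromosome 18, 0.288 on chromosome 19, 0.307 on chromosome 1 and 0.351 on chromosome 12, next to 1.83 on chromosome 3. The middle and the most uneven nucleus had nearly the same number of UMIs.

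**Figure D3:**
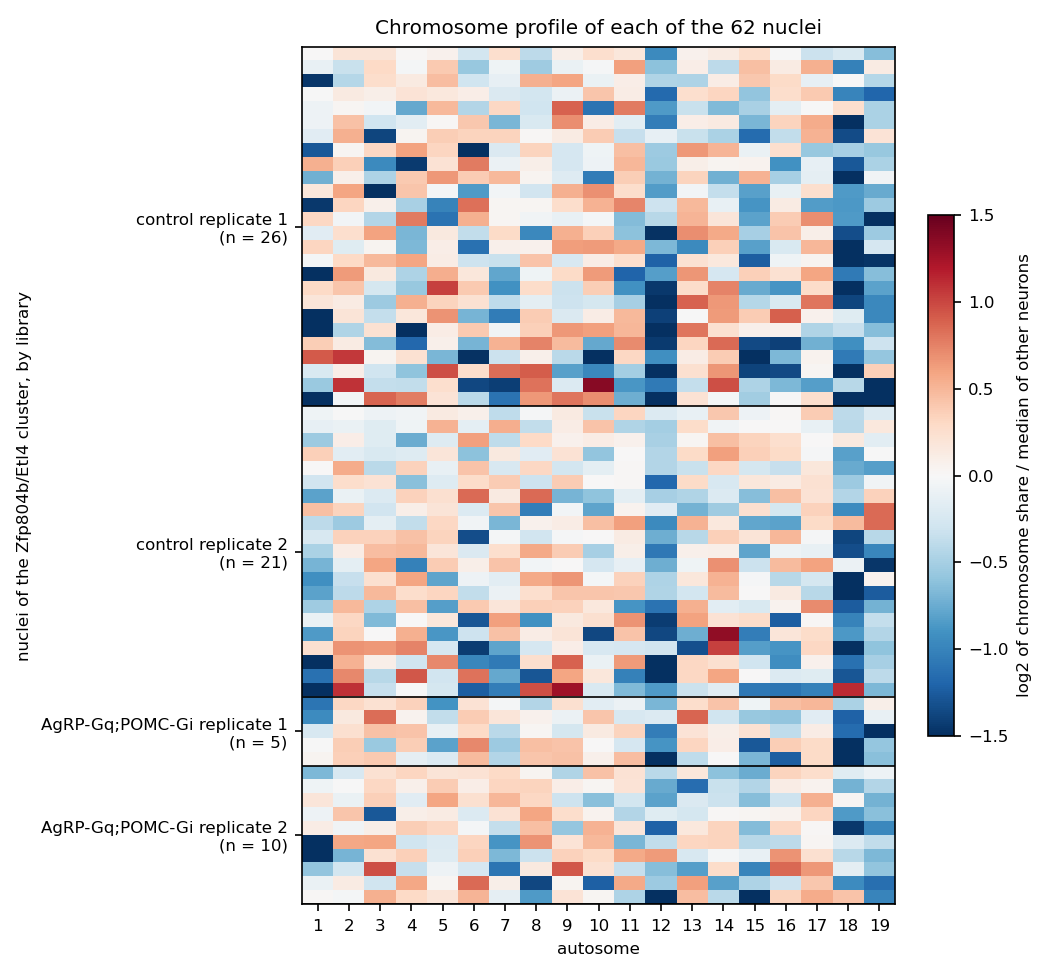
Chromosome profile of each of the 62 nuclei (rows, grouped by library and ordered by unevenness within it) over the 19 autosomes (columns), coloured by the log2 of the share ratio, blue below and red above other neurons. Blue columns at chromosomes 12 and 18 run through all libraries, while the remaining low chromosomes differ from row to row, and chromosome 2 is never under a share ratio of 0.6.

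The low share of a chromosome extended along its length. When each autosome was cut at the position that divides its UMIs evenly, the share ratios of its 2 parts were correlated over the 62 nuclei, with a median Pearson correlation of 0.726 over the 19 autosomes (0.499 to 0.880). Parts of different autosomes had a median correlation of -0.0323 over 342 pairs. By the definition of uneven nuclei given next, the median for parts of the same autosome was 0.727 in the 428 uneven other neurons, nearly that of the cluster, and 0.238 in the 12049 even ones. Uneven nuclei were chosen by the shares of whole autosomes, so the medians of uneven and even neurons follow in part from that choice. The points share libraries and depth, and the values are a description.

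To compare nuclei at equal depth, each was thinned to 2000 UMIs. This kept all 62 nuclei of the *Zfp804b*/*Etl4* cluster and 12311 other neurons, with 166 others too shallow, and the median number of genes was then 1246 and 1256. The unevenness of a nucleus was taken as the SD over the 19 autosomes of the log2 share ratio. It had a median of 0.622 in the cluster and 0.207 in other neurons, where 5% of nuclei lay under 0.145 and 5% above 0.498. Without thinning the medians were 0.60 and 0.136. A nucleus with at least 3 autosomes under a share ratio of 0.6 was called uneven. By that measure 44 of 62 nuclei of the cluster (71.0%) and 426 of 12311 other neurons (3.46%) were uneven, and without thinning 40 (64.5%) and 428 (3.43%). By library 22 of 26, 12 of 21, 3 of 5 and 7 of 10 nuclei of the cluster were uneven, and without thinning 20, 13, 3 and 4, so that AgRP-Gq;POMC-Gi replicate 2 went from 70% to 40%. The next clusters in order were 173, named for *Mecom* and *Oprk1*, with 23.7%, and 116, named for *Prph* and *Slc5a7*, with 21.8%.

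**Figure D4:**
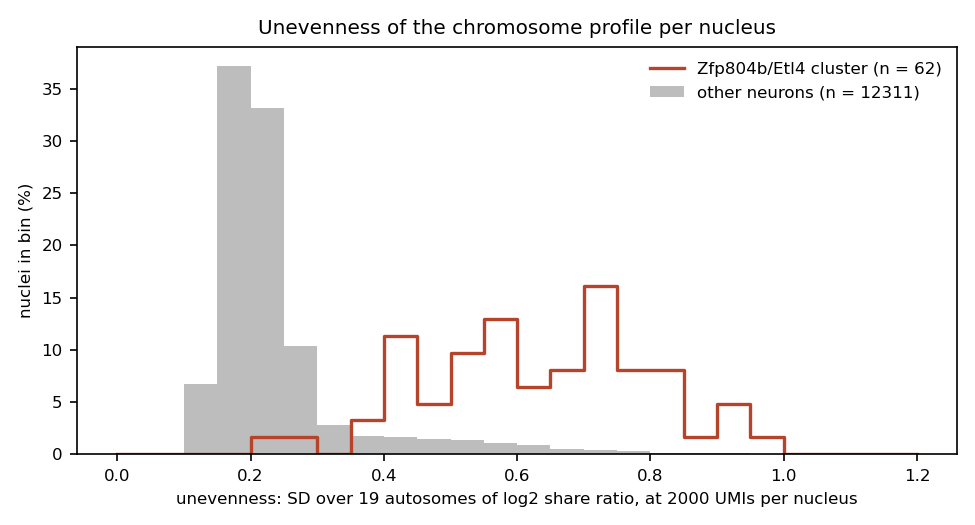
Distribution of unevenness per nucleus (SD over 19 autosomes of the log2 share ratio at 2000 UMIs) in the *Zfp804b*/*Etl4* cluster (red line, 62 nuclei) and in other neurons (grey bars, 12311 nuclei), as the percentage of nuclei per bin. The cluster is centred on 0.622 and lies over the thin right tail of the other neurons, which are centred on 0.207.

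Uneven nuclei outside the *Zfp804b*/*Etl4* cluster shared part of its profile. The 428 uneven nuclei found there without thinning had a median mitochondrial share of 0.251%, close to the 0.241% of the cluster, against 0.0877% in the 12049 even nuclei, and they were shallower, with 5475.5 UMIs against 8808. Of the 25 leading genes of the cluster, 23 were higher in these uneven neurons than in even ones, 22 of them in all 4 libraries. Of the 5500 genes detected in 25% or more of the cluster, 2736 were higher, 1065 of them in all 4 libraries. The median ratio of the 25 genes was 2.37, and it was 0.999 over those 5500 genes. *Gapdh* stood at 263 ± 64.0 CPM in uneven and 91.6 ± 20.8 CPM in even neurons (n = 4 libraries). *Thrb* and *Hdac9* differed less, at 269 and 224 CPM for *Thrb* and 534 and 590 CPM for *Hdac9*. The low chromosomes of these nuclei were more spread out, each autosome being low in 9.11% to 33.2% of them. In the cluster the range was 0 to 62.9% over all nuclei and 0 to 77.5% over its 40 uneven ones. Chromosomes 12, 18, 1 and 15, often low in the cluster too, were low in 33.2%, 27.6%, 26.6% and 25.2% of the uneven other neurons. Chromosome 13 was low in 31.1% of them and chromosome 19 in 22.2%. The mitochondrial share was not higher in the 40 uneven nuclei of the cluster, at 0.181%, than in its 22 even ones, at 0.308%.

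The *Zfp804b*/*Etl4* cluster had no single transmitter. A UMI of a vesicular glutamate transporter gene but of no inhibitory gene was found in 18 nuclei, a UMI of *Gad1*, *Gad2*, *Slc32a1* or *Slc6a5* but of no glutamate transporter gene in 18, both in 13 and neither in 13. Among nuclei with only one of the classes, the rarer class thus made up 50%, the largest share possible. Of the 134 clusters, cluster 179 also had 50%, with 6 nuclei of each class. The median of the other neuronal clusters was 3.33%. Both classes were found in the same nucleus in 13 of the 62 nuclei and in 9.59% of other neurons. At 2000 UMIs, where the transmitter of most nuclei is no longer seen, 2 nuclei of the cluster (3.23%) and 1.23% of other neurons had both.

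*Slc17a6*, the glutamate transporter gene of most hindbrain excitatory neurons, stood at 112, 105, 255 and 59.9 CPM, a mean of 133 ± 84.6 against 75.7 ± 3.43 CPM. It was detected in 50% of the nuclei, in 35.6% of other neurons and in 3.49% of oligodendrocytes, which should lack it. *Gad2*, an enzyme of GABA synthesis, stood at 67.5, 44.1, 0 and 299 CPM and differed more between the libraries of one group than between groups. *Gad1*, which shares that function, *Slc32a1*, the vesicular transporter of GABA and glycine, and *Slc6a5*, the glycine transporter of glycinergic neurons, were each detected in 24.2% of nuclei and in 1.39% to 2.82% of oligodendrocytes. *Slc17a7*, a second glutamate transporter gene, and the peptide gene *Cartpt* had no UMI in the 62 nuclei, which by the same limit allows a UMI in up to 4.84% of them. No gene of catecholamine, serotonin or acetylcholine neurons was found in at least 10% of the nuclei.

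Some channel genes of fast signalling were high. *Scn1a*, a sodium channel gene, stood at 797, 804, 680 and 659 CPM against 471 in other neurons. *Kcna2*, a potassium channel gene of axons, stood at 116, 110, 170 and 132 CPM against 63.0. *Gria4*, an AMPA receptor subunit, was found in 100% of nuclei at 1970.3 ± 218 against 1388 CPM. In all 4 libraries these genes lay above the level of other neurons. The fixed lists were counted beside all genes, of which 15.2% had a ratio above 1.5 and 19.9% one under 0.667. Of 56 potassium channel genes that reached 5% of nuclei in either set, 6 had a ratio above 1.5 and 15 (26.8%) a ratio under 0.667, of 28 sodium, calcium and HCN channel genes 2 and 5, and of 23 glutamate receptor genes 1 and 2.

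Of 99 members of the fixed lists with a ratio under 0.667, 38 (38.4%) lie on chromosomes 1, 12, 15, 18 and 19, against 38 of the other 269 members (14.1%). Over all genes it was 1035 of 2509 with such a ratio and 1416 of the other 10125. These chromosomes were picked for their low shares in the same nuclei, so both differences follow from that choice and are a description. *Dcc*, the netrin receptor of axon guidance on chromosome 18, stood at 495, 683, 234 and 419 CPM against 1306. *Kcnn2*, a calcium-activated potassium channel gene on the same chromosome, stood at 186, 88.2, 63.8 and 108 CPM against 399, and *Kcnq3*, a subunit of the M-current channel on chromosome 15, at 196, 220, 255 and 132 CPM against 505. The libraries of the *Zfp804b*/*Etl4* cluster lay below those of other neurons for all 3 genes.

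Lineage transcription factors were counted in the same way. Of 58 that reached 5% of nuclei in either set, 24 (41.4%, against the 19.9% of all genes) had a ratio under 0.667 and 7 a ratio above 1.5. *Tcf4*, on chromosome 18, stood at 73.9, 226, 0 and 168 CPM against 357, and *Ebf1*, on chromosome 11, at 96.4, 143, 170 and 204 CPM against 531. *Foxp2* stood at 196, 16.5, 425 and 95.8 CPM against 71.4 and was found in 17.7% of nuclei, so it marked some nuclei and not the cluster.

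Of the receptors with a part in feeding, *Nmur2*, a receptor for neuromedin U, stood at 64.2, 55.1, 63.8 and 83.8 CPM against 36.6 in other neurons. *Lepr*, the leptin receptor gene, stood at 25.7, 49.6, 63.8 and 35.9 CPM against 17.6, and was detected in 25.8% of nuclei against 12.6%. Both were higher than in other neurons in all 4 libraries, and their groups overlapped. *Prlr*, the prolactin receptor gene, varied from 0 to 298 CPM between libraries, 22.5, 110, 298 and 0. *Glp1r*, *Gfral* and *Calcr*, receptor genes for satiety hormones, had 1 UMI each. Over the list 7 of 25 receptor genes lay above a ratio of 1.5 and 4 under 0.667.

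The clusters most like the *Zfp804b*/*Etl4* cluster were found by the Pearson correlation over 10327 genes of the log2 of mean CPM, with 10 CPM added. They were cluster 30, named for *Zfp804b* and *Npas1* (0.926), cluster 33, named for *Il1rapl2* and *Slc6a5* (0.924), and cluster 28, named for *Mecom* and *Sema3a* (0.924). Clusters 30 and 28 hold *Slc17a6*, at 134.6 ± 28.1 and 161 ± 15.8 CPM, and cluster 33 holds *Slc6a5*, at 221 ± 23.9 CPM, so the nearest clusters were of both transmitter classes. In none of the 3 was a leading gene such as *Gapdh* as high, with 78.5 to 101 CPM against 259 ± 134 CPM, and 4.67% of their 643 nuclei were uneven at 2000 UMIs. The median best correlation of the other clusters with any cluster was 0.938.

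The next question was whether the *Zfp804b*/*Etl4* cluster differed between the groups of mice. It made up 1.05% of neurons in control replicate 1 (0.689% to 1.54%), 0.768% in control replicate 2 (0.476% to 1.17%), 0.135% in AgRP-Gq;POMC-Gi replicate 1 (0.0439% to 0.315%) and 0.275% in AgRP-Gq;POMC-Gi replicate 2 (0.132% to 0.505%). Both control libraries lay above both AgRP-Gq;POMC-Gi libraries, which was also so in 18 of the 134 clusters (13.4%), while in 51 (38.1%) the groups did not overlap in one direction or the other. The mean ± SD of 2 libraries was 0.910% ± 0.202 in control and 0.205% ± 0.0988 in AgRP-Gq;POMC-Gi mice, a ratio of 4.44, with a two-sided exact permutation p of 0.333, the smallest that 2 against 2 libraries allow. In a fit over all clusters with the quasi-likelihood test of edgeR the log2 fold change was -2.13 (SE 0.64), with an unadjusted p of 0.00942 from edgeR and an adjusted p of 0.421. The difference did not pass the threshold of 0.05, and neither did that of any other cluster (0 of 134, percent called 0, with 8 clusters at an unadjusted p under 0.05). DESeq2 called 0 of 134, with 5 at an unadjusted p under 0.05. Neurons made up 25.4%, 27.2%, 38.0% and 36.5% of kept nuclei, so the denominator also differed between groups. With all kept nuclei as the denominator the log2 fold change was -1.63, 3.09-fold higher in control (edgeR adjusted p 0.244). In that fit 3 of 134 clusters passed the threshold, and this cluster did not.

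Uneven nuclei outside the *Zfp804b*/*Etl4* cluster were also more frequent in the control libraries. At 2000 UMIs they made up 5.77% and 5.23% of other neurons in control replicates 1 and 2. In AgRP-Gq;POMC-Gi replicates 1 and 2 it was 1.49% and 2.59%, with a ratio of means of 2.70. Without thinning, uneven nuclei were 3.40%, 2.59%, 0.943% and 1.19% of astrocytes with at least 2000 UMIs, in the same order of libraries. They were 0.270%, 0.164%, 0.0868% and 0.170% of such oligodendrocytes. When nuclei uneven without thinning were left out, the cluster made up 0.260% and 0.309% of neurons in control and 0.0550% and 0.170% in AgRP-Gq;POMC-Gi libraries. The log2 fold change was then -1.32 with an adjusted p of 0.684 in edgeR. With thinning 70% in place of 40% of the cluster's nuclei in AgRP-Gq;POMC-Gi replicate 2 were uneven. Fewer of its nuclei would then remain, and the share was not computed that way. The part of uneven nuclei in the lower share of the cluster was not tested beyond this.

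**Figure D5:**
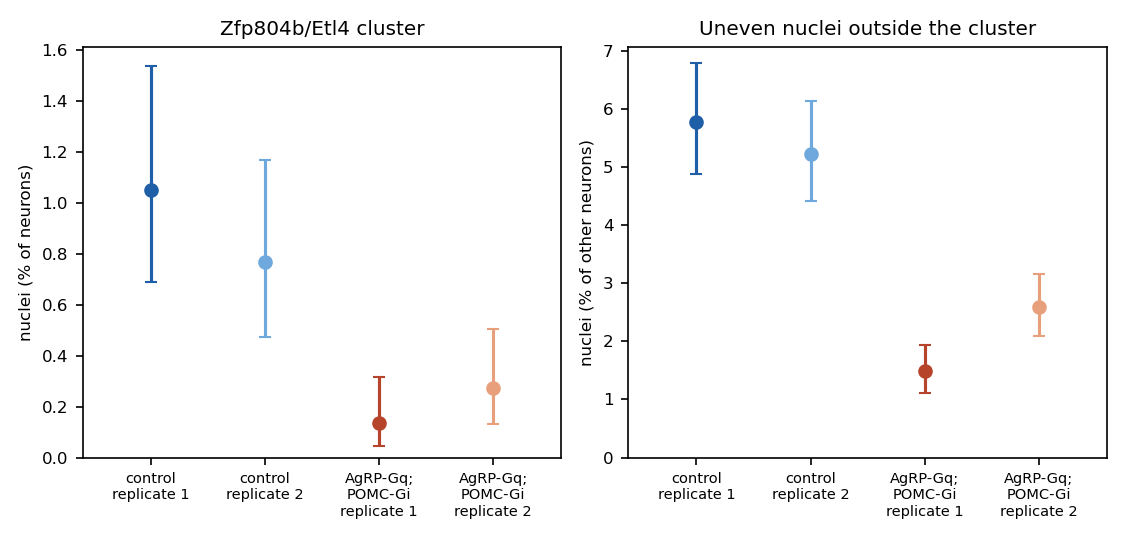
Left, nuclei of the *Zfp804b*/*Etl4* cluster as a percentage of neurons in each library, and right, uneven nuclei as a percentage of other neurons, with exact 95% intervals that cover counting error only. In both panels the control libraries lie above the AgRP-Gq;POMC-Gi libraries, at 1.05% and 0.768% against 0.135% and 0.275% on the left.

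Within the *Zfp804b*/*Etl4* cluster few genes differed between the groups. UMIs were summed per library, and the quasi-likelihood test of edgeR on 11572 genes called 7 genes at an adjusted p under 0.05 (0.0605%), 2 higher and 5 lower in AgRP-Gq;POMC-Gi, while 610 had an unadjusted p under 0.05. The groups did not overlap in CPM in 4147 genes (35.8%). DESeq2 called 0 genes, with 73 at an unadjusted p under 0.05. The AgRP-Gq;POMC-Gi sums rest on 15 nuclei with 130566 UMIs. In simulated data of this depth edgeR found 43.5% of genes changed 8-fold and 8% of those changed 4-fold. The simulation used a larger spread between libraries than the common dispersion, edgeR's measure of that spread, of 0.0569 estimated from these sums. In that setting most changes of these sizes were missed.

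The genes called lower included *Nell1*, *Kcnmb2* and *Pde1a*, which also name other neuronal clusters. The mix of transmitter classes in the cluster differed by library. Nuclei with glutamate genes only numbered 5, 9, 3 and 1, and those with inhibitory genes only 8, 5, 1 and 4. A change in expression therefore cannot be told apart from a different mix of sampled neurons. *Nell1*, a gene of a secreted protein, had 154, 32, 2 and 1 UMIs, a ratio of the pooled levels of 16.4 in favour of control (5.53 to 80.4, counting error only; edgeR adjusted p 8.24e-06). *Kcnmb2*, an accessory subunit of a calcium-activated potassium channel, had 80, 24, 2 and 1 UMIs (ratio 9.18, 3.06 to 45.3; edgeR adjusted p 0.0101). *Pde1a*, a phosphodiesterase activated by calmodulin, had 64, 44, 0 and 4 UMIs, with a log2 fold change of -3.02 (SE 0.66, edgeR adjusted p 0.0101). For these genes no nucleus of AgRP-Gq;POMC-Gi held more than 3 UMIs, and the highest count in a nucleus of control replicate 1 was 26 for *Nell1*, 32 for *Kcnmb2* and 26 for *Pde1a*. Some calls were lost when a library was left out, while the fold changes of these 3 genes kept their sign. Without control replicate 1 the log2 fold change was -2.98 for *Nell1*, -2.57 for *Kcnmb2* and -3.11 for *Pde1a*, with edgeR adjusted p of 0.998, 0.998 and 0.420. *Nell1* passed with each of the other libraries left out, and its log2 fold change ran from -4.90 to -2.98. That of *Kcnmb2* was also 0.102 when control replicate 2 was left out and 0.253 when AgRP-Gq;POMC-Gi replicate 2 was, with log2 fold changes of -4.11 to -2.44 over the libraries left out. For *Pde1a* it was 0.853 when control replicate 2 was left out and 0.110 when AgRP-Gq;POMC-Gi replicate 1 was, and its log2 fold change ran from -8.34 to -2.31.

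*Sgms1*, an enzyme of sphingomyelin synthesis on chromosome 19, had 26, 22, 0 and 0 UMIs and was at least 4.24-fold lower in AgRP-Gq;POMC-Gi, taking 3 counts over that group as the limit of a count of 0 (edgeR adjusted p 0.0184). It did not pass the threshold when any one library was left out, with edgeR adjusted p of 0.0535 to 0.853, while its fitted log2 fold change stayed between -7.28 and -6.70. *Xist*, the RNA that coats the inactive X chromosome of female cells, had 98, 32, 0 and 0 UMIs and was at least 11.5-fold lower (edgeR adjusted p 4.04e-07). *Xist* was found in 66.9%, 48.3%, 64.7% and 2.18% of other neurons, and *Uty* of the Y chromosome in 15.4%, 28.6%, 60.0% and 80.0% of the nuclei of the *Zfp804b*/*Etl4* cluster. The libraries thus differed in their mix of sexes. In the cluster *Xist* was found in 57.7%, 47.6%, 0% and 0% of nuclei, while the control nuclei included some with *Uty*. Sex and group were therefore tied in part, and they were not separated for any of the group differences given here. In AgRP-Gq;POMC-Gi replicate 1 the absence of *Xist* rests on 5 nuclei.

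The 2 higher genes each rested on single nuclei. *Myo1h*, an unconventional myosin gene, had 1, 0, 7 and 18 UMIs, of which the 18 lay in 1 nucleus and the 7 in 2 nuclei (edgeR adjusted p 1.15e-07). *Cntnap5c*, a contactin-associated cell adhesion gene, had 47, 24, 48 and 19 UMIs, of which 41 lay in 1 nucleus of AgRP-Gq;POMC-Gi replicate 1, with a log2 fold change of 1.84 (SE 0.43, edgeR adjusted p 0.0340). The *Cntnap5c* call was lost without AgRP-Gq;POMC-Gi replicate 1, where its log2 fold change was 0.55 (edgeR adjusted p 0.779), and also without a gene filter (0.109). Leaving out control replicate 1 or 2 kept the log2 fold change at 1.99 or 1.76 but not the call (edgeR adjusted p 0.998 and 0.996). *Myo1h* and *Xist* passed with each library left out, at an edgeR adjusted p of 0.0394 or less. The test treats UMIs summed over nuclei as one value per library and does not see that they came from one nucleus.

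Whether the group difference in the *Zfp804b*/*Etl4* cluster departed from that in other neurons was tested as an interaction in edgeR, with the library as a term. It was called for 7 of 11572 genes (0.0605%), with 578 at an unadjusted p under 0.05, and DESeq2 called 0, with 209 at an unadjusted p under 0.05. They were *Nell1*, *Kcnmb2*, *Pde1a*, *Sgms1*, *Xist* and *Myo1h*, named above, and *Gtdc1*, a glycosyltransferase-like gene. *Gtdc1* had 68, 37, 3 and 2 UMIs in the cluster, at 218, 204, 63.8 and 23.9 CPM, and 169, 178, 210 and 177 CPM in other neurons. Its group difference was lower by a log2 of -2.79 (SE 0.64, edgeR adjusted p 0.0195) in the cluster, and the groups did not overlap there. All 7 interaction calls were lost without control replicate 1, and that of *Gtdc1* also when control replicate 2 (edgeR adjusted p 0.618) or AgRP-Gq;POMC-Gi replicate 2 (0.398) was left out. The difference itself stayed between -3.29 and -2.34 for *Gtdc1*, between -4.79 and -3.08 for *Nell1* and between -4.28 and -2.62 for *Kcnmb2*. It ran more widely for *Pde1a*, from -14.8 to -2.28, for *Myo1h*, from 5.02 to 14.2, and for *Xist*, from -15.2 to -10.1. For *Sgms1* it ran from -13.9 to -13.3. The largest values were fitted where a group left in the fit had no UMI in the cluster, so their size was not measured. In DESeq2, with all libraries, the difference was -5.20 for *Sgms1* and -4.42 for *Xist*. The group test and the interaction test share the same sums of the cluster.

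None of the 25 leading genes was called between the groups (edgeR, lowest adjusted p 0.877, that of *Col16a1*). Their median log2 fold change was 0.14, against -0.23 over all genes. *Gapdh*, *Actb*, *Nefl* and *Thrb* had log2 fold changes of 0.36 (SE 0.43), 0.04 (SE 0.43), 0.07 (SE 0.45) and 0.14 (SE 0.41).

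The 10 immediate early genes that the study used as signs of neuronal activation were each found in 1 to 25 of the 62 nuclei of the *Zfp804b*/*Etl4* cluster. *Homer1*, a scaffold gene of synapses induced by activity, stood at 70.7, 60.6, 128 and 47.9 CPM against 66.7 in other neurons, and its groups overlapped (log2 fold change 0.06, SE 0.63, edgeR adjusted p 0.990). *1700016P03Rik*, a host transcript of small RNAs induced by activity, had 4, 2, 0 and 11 UMIs, of which the 11 lay in 1 nucleus (log2 fold change 2.48, edgeR adjusted p 0.498). Its log2 fold change was 3.25 without AgRP-Gq;POMC-Gi replicate 1, which passed the threshold (edgeR adjusted p 0.0293), but -4.23 when AgRP-Gq;POMC-Gi replicate 2 was left out (0.763). *Fos* had UMIs in 3 nuclei (4.84%), and *Btg1*, a gene that restrains proliferation, in 2 nuclei, at 1.61 CPM against 22.9 in other neurons, the lowest level of all clusters.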

How the data were processed

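Nuclei of 4 libraries were sequenced by the authors with the 10x Genomics 3′ kit, after sorting for DRAQ5-stained singlets. Reads were mapped to GRCm38 (mm10) and UMIs counted with Cell Ranger 7.0.0, and the deposited matrices hold raw UMI counts per gene and barcode. The authors' table of nuclei gives UMI and gene counts, the percent of mitochondrial UMIs, the filter result, the cluster and the cell type of each barcode. They filtered with Seurat 4.3.0 (at least 800 UMIs and 500 genes in the kept nuclei), removed doublets with a caller, embedded the nuclei with scvi-tools without immediate early genes and clustered them by the Louvain method. Their immediate early gene scores hold their own comparison and were not used, and the joined matrix was not used.

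CPM were UMIs summed per library over the total of those nuclei, scaled to 1000000. Named genes were the 25 leading and 10 lowest genes by the ratio defined in the text, genes highest in the *Zfp804b*/*Etl4* cluster, members of 33 fixed lists found in at least 10% of its nuclei, the immediate early genes and the genes called between groups. The cluster, these rules and the lists were chosen with earlier results of these data known, and the gene families and chromosome measures after the leading genes were seen. Group differences were tested with the quasi-likelihood test of edgeR 4.0.16 (TMM, genes detected in 5% or more of the nuclei of the cluster, Benjamini-Hochberg adjustment, threshold 0.05), in R 4.3.3. Alternatives were DESeq2 1.42.0, no TMM, other gene filters, a replicate block, thinning and each library left out. The mixed model of the study was not used here. The edgeR tests were tried on simulated data with 200 changed genes. Gene positions came from GENCODE M21, where 32235 of 32285 genes were found by identifier. Other steps used Python 3.11.15 (pandas 2.3.3, scipy 1.17.1, numpy 2.4.6, matplotlib 3.10.9).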

Additional observations from a re-analysis of the deposited data

Results flagged for a closer look

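In 7 genes the group difference in the *Zfp804b*/*Etl4* cluster departed from that in other neurons by the interaction test of edgeR. The adjusted p was 9.61e-05 for *Nell1*, 0.000625 for *Myo1h*, 0.00375 for *Xist*, 0.00730 for *Kcnmb2*, 0.00730 for *Pde1a*, 0.0163 for *Sgms1* and 0.0195 for *Gtdc1*. Without control replicate 1 none of the 7 passed (edgeR adjusted p 0.223 to 1), and without AgRP-Gq;POMC-Gi replicate 2 only *Xist* did (0.0497). In other neurons *Nell1* stood at 219, 231, 250 and 211 CPM, and *Kcnmb2* at 163, 170, 174 and 181 CPM, so that these values lay close together outside the cluster. *Myo1h* stood at 2.60, 3.78, 4.92 and 3.38 CPM in other neurons, and its 18 UMIs in AgRP-Gq;POMC-Gi replicate 2 of the cluster came from 1 nucleus. *Xist* differed between the libraries of other neurons as well, at 509, 320, 542 and 16.3 CPM.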

How the results depend on the processing

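The lower share of the *Zfp804b*/*Etl4* cluster among neurons kept its direction under all 9 alternatives and passed the threshold under none, with log2 fold changes of -2.71 to -1.71 when a library was left out and -2.15 with a replicate block. The count of 7 genes changed between groups fell to 0 with DESeq2 (73 at an unadjusted p under 0.05) and to 0 with filterByExpr (156 at an unadjusted p under 0.05). It ranged from 2 to 31 when a library was left out, being 2 and 4 without control replicate 1 or 2, and 15 and 31 without AgRP-Gq;POMC-Gi replicate 1 or 2. It was 5 with a replicate block, where *Kcnmb2* (adjusted p 0.0708) and *Cntnap5c* (0.235) were lost. Same-numbered libraries deviated together with a correlation of only 0.0258 and share no stated batch, so they were not paired. The 7 interaction genes became 0 with DESeq2 (209 at an unadjusted p under 0.05) and 0 to 13 when a library was left out (0 without control replicate 1, with 272 at an unadjusted p under 0.05). Over the called genes and their alternatives, 31 of 63 group differences and 28 of 56 interactions no longer passed the threshold, and none changed sign. Among genes not called, that of *Homer1* ran from -0.59 to 0.71 with a library left out and was -0.0081 without a gene filter, and that of *1700016P03Rik* ran from -4.23 to 3.25 with a library left out.

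Of the 25 leading genes 2 were shared when a UMI in 10% of nuclei was required in place of 25%, and 12 to 19 when a library was left out, 12 without either AgRP-Gq;POMC-Gi library. Of 189 ratios to other neurons 182 kept within the spread between libraries. Beyond that spread, thinning to 2000 UMIs moved *Rab3a* from 2.76 to 1.21, *Eno1* from 3.11 to 5.51, *Psmb4* from 2.90 to 4.37 and *Nacc2* from 2.74 to 2.60. *Mrpl30* went from 3.85 to 7.53 within its wide spread. The ratio of *Csnk2b* turned to 0.761 when nuclei were thinned to 2000 UMIs. That of *Zfp804b*, which was 0.869 to 1.53 with a library left out, turned to 0.869 without control replicate 1. With genes of at least 50 CPM 1 of the 3 most similar clusters was shared. The share ratio of chromosome 19 moved to 0.813 with abundant genes included, and the other chromosome values and the unevenness moved by less than the spread between libraries. The chromosome alternatives were chosen after seeing the data. The cause of these changes was not tested. The AgRP-Gq;POMC-Gi values rest on 5 and 10 nuclei, which limits their precision.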

Other observations

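UMIs assigned to *Agrp*, which in the brain is best known from the hypothalamus, were found in 46.8% of the nuclei of the *Zfp804b*/*Etl4* cluster, in 50.8% of other hindbrain neurons and in 4.66% of oligodendrocytes. The level was 57.8, 99.2, 21.3 and 95.8 CPM in the cluster, against a mean of 88.1 ± 3.77 CPM in other neurons, with control and AgRP-Gq;POMC-Gi values overlapping. The annotated *Agrp* gene overlaps *Gm5914* and *Ripor1*, among others, and reads of overlapping genes may be assigned to it.

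*Calb2*, which encodes the calcium-binding protein calretinin, stood at 12.8, 99.2, 21.3 and 35.9 CPM in the *Zfp804b*/*Etl4* cluster against 13.4 CPM in other neurons, and was detected in 17.7% of its nuclei. *S100b*, another calcium-binding protein gene, was more even, at 67.5, 55.1, 42.5 and 59.9 CPM against 25.1. *Gabrb2*, a subunit of the GABA-A receptor, stood at 258 ± 93.5 CPM against 154 CPM.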
